A study of Mus musculus with 8 samples.

Results

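The 8 genes described here are Smo, the Gli transcription factors Gli1, Gli2 and Gli3, and the Gli regulators Sufu, Kif7, Spop and Stk36. They were taken by symbol from a count table of 24539 gene symbols, without use of their values. All 8 were among the 13459 genes that passed the filter on low counts. The table holds RNA sequencing of nephron progenitors, the kidney cells that form nephrons, from mouse embryos at E18.5. The cells were sorted by fluorescence for Six2GFPcre, a transgene that places a GFP and Cre fusion under Six2 control and that every group carries. A group without Cre was not analysed here. The series varied the dose of Smo over 4 genotype groups of 2 libraries each.

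KO-labelled embryos were Smo c/c ; Six2GFPcre, with 2 conditional Smo alleles that Cre removes. Het-labelled embryos were Smo c/+ ; Six2GFPcre, with 1 conditional and 1 wild-type allele. WT-labelled embryos were Smo +/+ ; Six2GFPcre. SmoM2-labelled embryos carried Rosa26 SmoM2/+ with Smo +/+ and Six2GFPcre, so that Cre turned on SmoM2, an active form of Smo, beside 2 wild-type Smo alleles. Libraries are named by their labels, because the level of Smo in the Het-labelled libraries went against theirs. The labels do not say whether a library came from 1 embryo or a pool. The WT- and SmoM2-labelled pairs each hold a male and a female library, by Xist and Y-linked counts, and so came from different embryos. For the KO- and Het-labelled pairs this is not known, and the spread within them may be technical. In 2 against 2 libraries the smallest two-sided exact permutation p is 0.333, and no such test is given.

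In the Hedgehog pathway a secreted ligand binds the receptor Ptch1, which otherwise holds Smo, a membrane protein, inactive. Active Smo gathers in the primary cilium and keeps Gli2 and Gli3 from being cut into repressors, and the full-length factors then turn on targets, among them Gli1, an activator. Sufu binds and holds Gli proteins, Kif7 is a kinesin of the cilium tip, Spop brings Gli proteins to a Cul3 ubiquitin ligase, and Stk36 is the mammalian relative of the fly kinase Fused. In the developing kidney the pathway is best known from the stroma and the mesenchyme around the ureter.

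The listed counts summed to between 4422305 and 4442697 in the KO-labelled libraries, 5929770 and 7577590 in the Het-labelled libraries, and 9037109 and 10305398 in the other 4. The 12 nephron progenitor markers had more than 3 counts in at least 1 library of each group. Levels are given in CPM, the count of a gene scaled to the size of its library. These markers summed to between 5372 and 5882 CPM in the KO-labelled and 6573 and 6966 in the Het-labelled libraries. In the WT-labelled libraries the sum was between 4699 and 4989 and in the SmoM2-labelled ones between 4770 and 4813. Endothelial markers summed to at most 3.40 CPM. Markers of the early nephron, the structure that progenitors form next, summed to between 941 and 1117 CPM in the KO-labelled, 476 and 669 in the Het-labelled, 431 and 548 in the WT-labelled and 376 and 499 in the SmoM2-labelled libraries. The 3 erythroid markers summed to between 8.93 and 26.8 CPM in the 4 libraries with a KO or Het label and to between 1.39 and 5.73 in the other 4. Of these, Hba-a1 and Hba-a2 had the same counts in every group and cannot be taken as separate readings. Alas2 had group means of 0.44, 0.81, 0.71 and 0.44 CPM from the KO to the SmoM2 label. The 4 immune markers summed to between 14.6 and 23.0 CPM in the KO-labelled, 43.8 and 49.2 in the Het-labelled and 27.8 and 33.5 in the other 4 libraries, with Ptprc at 0 under the KO and SmoM2 labels. Most of that sum was Cd68, with group means of 12.4, 43.0, 24.1 and 26.0 CPM from the KO to the SmoM2 label. Csf1r (2.77, 1.51, 2.74 and 1.61 CPM) and Laptm5 (3.65, 1.88, 3.52 and 3.01 CPM) were lowest under the Het label. The part of the cells with these markers in the results was not tested. The 10 stromal markers summed to between 88.2 and 625 CPM in the KO-labelled, 167 and 347 in the Het-labelled, 338 and 533 in the WT-labelled and 558 and 691 in the SmoM2-labelled libraries, with only Ren1 at 0 counts in a whole group (WT-labelled). The 10 genes of the response to tissue dissociation summed to between 4043 and 5938 CPM in the KO-labelled, 7967 and 7998 in the Het-labelled, 2870 and 3040 in the WT-labelled and 3290 and 4775 in the SmoM2-labelled libraries. By the same sex-linked counts both KO-labelled libraries were male and both Het-labelled ones female. The labels give no sequencing batch, and a batch that followed the groups cannot be told apart from them. In bulk RNA, fewer cells that make a transcript and less of it per cell cannot be told apart.

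RefSeq promoters (GRCm38.p6), the 250 bases before each gene's RefSeq start, were matched for 7 of the 8 genes, and Gli1 had no entry. They are shown for Gli2 and Gli3, close relatives whose changes differed in size in these libraries. Gli2 was called lower under the KO and Het labels. Gli3 was called in none of the 6 comparisons, though its KO- against WT-labelled change was also below 0. Capitals mark the 7 bases GGGTGGT, the reverse complement of ACCACCC, the core of the Gli binding motif. The Gli2 window ends at the GENCODE M21 start of the gene. The Gli3 window lies inside the GENCODE M21 gene, in an intron of transcripts that start upstream of it, and it ends where another Gli3 transcript starts. It also overlaps an exon of Gm6556 on the opposite strand.
Gli2, chr1:119053620-119053869, minus strand: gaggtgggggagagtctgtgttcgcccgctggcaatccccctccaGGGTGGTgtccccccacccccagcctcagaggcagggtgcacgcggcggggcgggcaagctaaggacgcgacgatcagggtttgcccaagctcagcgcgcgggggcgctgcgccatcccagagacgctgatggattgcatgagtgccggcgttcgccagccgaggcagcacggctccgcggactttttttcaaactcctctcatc
Gli3, chr13:15463473-15463722, plus strand: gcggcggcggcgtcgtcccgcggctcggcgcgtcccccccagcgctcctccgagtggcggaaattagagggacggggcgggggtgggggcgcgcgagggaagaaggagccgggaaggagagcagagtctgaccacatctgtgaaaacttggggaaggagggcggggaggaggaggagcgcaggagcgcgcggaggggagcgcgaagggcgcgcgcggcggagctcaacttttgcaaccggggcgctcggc

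Both strands of all 7 promoters were searched. The core ACCACCC was found only in Gli2, beginning 205 bases before the start, and 3.92% of 32851 promoters of the same length hold it. The longer form GACCACCCA, which contains the core, was found in none of the 7 and in 0.225% of all promoters. The GC box GGGCGG was present in 6 of the 7, all but Smo, against 32.7% of all promoters. CCAAT was present in Sufu alone, against 33.8%. The Gli2 window had 67.2% G and C bases and the Gli3 window 72.8%. A match describes letters in this window and shows no binding.

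Smo lies at chr6:29735503-29761365 on the plus strand of GRCm38. Its counts were 59 and 51 in the KO-labelled, 108 and 141 in the Het-labelled, 3893 and 3442 in the WT-labelled and 5915 and 5443 in the SmoM2-labelled libraries, each pair in the order of the replicate numbers. These are 13.1 and 11.1 CPM, 14.4 and 23.9 CPM, 363 and 375 CPM, and 605 and 629 CPM. The order was KO, Het, WT, SmoM2, and no library of a group overlapped that of the next. In the KO-labelled libraries Smo was 30.5-fold lower than in the WT-labelled ones (edgeR quasi-likelihood log2 change -4.93, SE 0.21, adjusted p 7.40e-07), the lowest p of all genes tested.

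In the Het-labelled libraries, whose label gives 1 wild-type allele, Smo was 19.4-fold lower than in the WT-labelled ones (log2 change -4.28, SE 0.20, edgeR adjusted p 1.55e-06). The KO- and Het-labelled neighbours in this order were not called different (log2 change -0.65, 95% interval -1.15 to -0.15, edgeR adjusted p 0.0907). Nor were the WT- and SmoM2-labelled neighbours (log2 change 0.74, interval 0.38 to 1.10, edgeR adjusted p 0.132). Both of these were called by DESeq2 and with no filter on low counts, and over 17 alternatives their adjusted p ranged from 0.00822 to 0.510 and from 3.62e-05 to 0.540. The table counts reads over the whole gene. Reads from SmoM2, from intact Smo alleles and from any transcript of a recombined allele cannot be told apart in it.

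**Figure D1:**
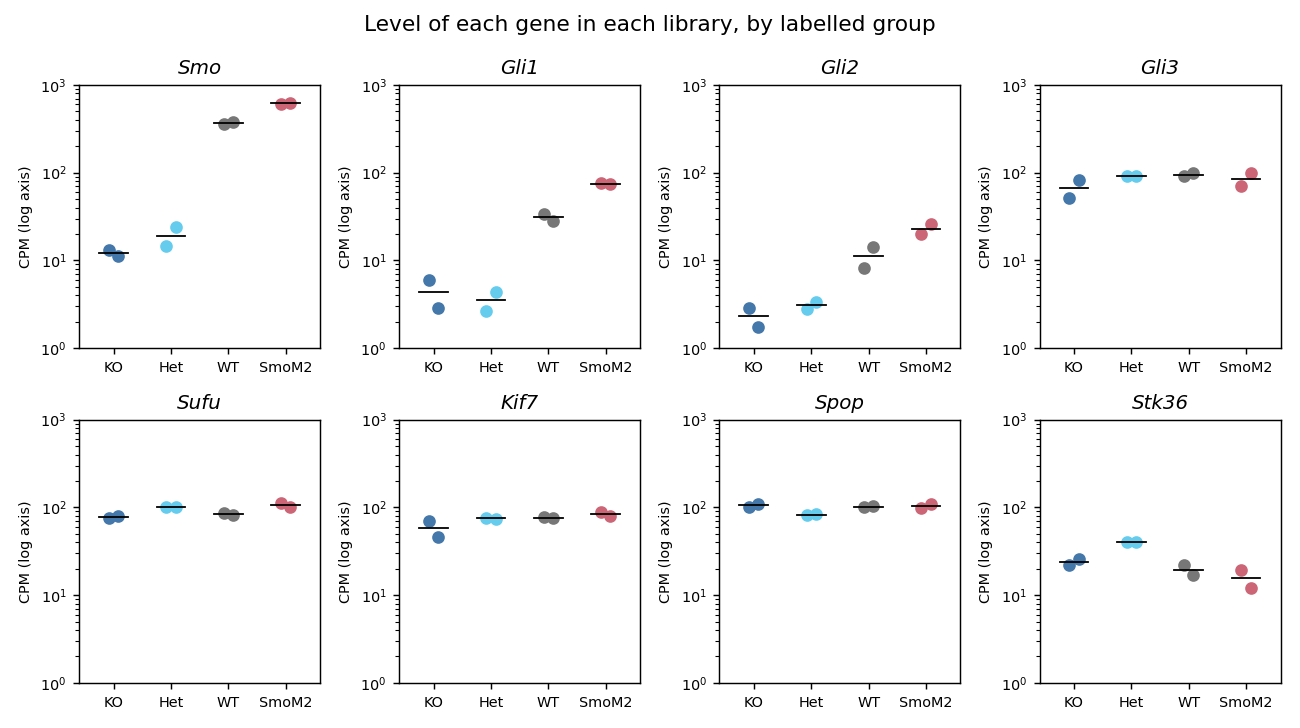
Level of each gene in each library in CPM (log axis from 1 to 1000), in the KO-, Het-, WT- and SmoM2-labelled groups; points are libraries and lines are means of the 2 libraries. Smo, Gli1 and Gli2 sat lower in all 4 KO- and Het-labelled libraries than in any other, Gli3, Sufu, Kif7 and Spop stayed between 46.4 and 112 CPM, and Stk36 was highest in the Het-labelled libraries.

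Gli1 and Gli2 were lower in both the KO- and the Het-labelled libraries than in the WT-labelled ones, and Gli1 was higher in the SmoM2-labelled ones. Gli1 (chr10:127329882-127341974, minus strand) is an activator and a widely used readout of the pathway. Its counts were 27 and 13 in the KO-labelled, 20 and 26 in the Het-labelled, 360 and 260 in the WT-labelled and 742 and 636 in the SmoM2-labelled libraries, or 5.98 and 2.83 CPM, 2.67 and 4.42 CPM, 33.6 and 28.3 CPM, and 75.9 and 73.5 CPM. The KO- and Het-labelled libraries overlapped, and both groups lay below both WT-labelled libraries, which lay below both SmoM2-labelled ones.

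Gli1 was 7.02-fold lower in KO- than in WT-labelled libraries (log2 change -2.81, SE 0.29, edgeR adjusted p 0.000183). It was 8.88-fold lower in Het- than in WT-labelled libraries (log2 change -3.15, SE 0.28, edgeR adjusted p 8.27e-05). From Het- to KO-labelled libraries the change of 0.34 had an interval of -0.47 to 1.15 (edgeR adjusted p 0.594), and it fell below 0 without KO-labelled replicate 1 or without Het-labelled replicate 1. The intervals of the 2 decreases against the WT-labelled libraries, -3.44 to -2.19 and -3.76 to -2.54, overlapped.

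In SmoM2- against WT-labelled libraries Gli1 was 2.41-fold higher (log2 change 1.27, SE 0.21, edgeR adjusted p 0.0427). That call was close to the threshold. It was lost without either WT-labelled library (adjusted p 0.114 without replicate 1 and 0.0710 without replicate 2) and without either SmoM2-labelled library (0.178 and 0.197). It was also lost with the library totals that the RPKM values imply (0.0559) and with the dissociation genes as a term (0.168). Over the 17 alternatives the change lay between 1.17 and 1.41 and the adjusted p between 3.46e-09 and 0.197. Against the SmoM2-labelled libraries Gli1 was 16.9-fold lower in the KO-labelled (log2 change -4.08, SE 0.28, edgeR adjusted p 6.53e-06) and 21.4-fold lower in the Het-labelled ones (log2 change -4.42, SE 0.27, edgeR adjusted p 4.97e-06).

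Gli1 shares 62 exon bases with Arhgap9 and 265 with Gm47200, both on the opposite strand in GENCODE M21. The strand setting of the counting is not given in the sources used here, so reads in those bases cannot be assigned. Arhgap9 was at 0.22 CPM in each KO-labelled library, 0.67 and 1.02 in the Het-labelled, 1.96 and 2.40 in the WT-labelled and 2.97 and 3.35 in the SmoM2-labelled ones. In the KO-labelled libraries 3 counts are 0.66 and 0.65 CPM, so Arhgap9 lay below 3 counts in both. Its fitted changes with these libraries rest on those few reads. Arhgap9 was called lower in KO- than in WT-labelled libraries (log2 change -3.21, edgeR adjusted p 0.00896). Against the SmoM2-labelled libraries it was called lower in the KO- and the Het-labelled ones (-3.75 and -1.91, edgeR adjusted p 0.00209 and 0.0103). The remaining comparisons did not call it.

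Gli2 (chr1:118834132-119053619, minus strand) can act as activator or repressor and is usually the main activator of the pathway. Its counts were low: 13 and 8 in the KO-labelled, 21 and 20 in the Het-labelled, 88 and 131 in the WT-labelled and 196 and 223 in the SmoM2-labelled libraries. For the lowest count of 8 the exact 95% Poisson interval was 3.45 to 15.8, which covers counting error only. In CPM these are 2.88 and 1.74, 2.81 and 3.40, 8.20 and 14.3, and 20.04 and 25.8. As for Gli1, the KO- and Het-labelled libraries overlapped and all 4 lay below the WT-labelled ones, which lay below the SmoM2-labelled ones.

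Gli2 was 4.82-fold lower in KO- than in WT-labelled libraries (log2 change -2.27, SE 0.39, edgeR adjusted p 0.00262) and 3.62-fold lower in Het- than in WT-labelled libraries (log2 change -1.85, SE 0.34, edgeR adjusted p 0.00362). The latter call was lost with the dissociation genes as a term (adjusted p 0.0691, range over alternatives 8.61e-08 to 0.0691), although the change was then -2.59. The change of Gli2 in SmoM2- against WT-labelled libraries, 1.03 (interval 0.41 to 1.65), was not called (edgeR adjusted p 0.256) except with no filter on low counts (0.00438, range over alternatives 0.00438 to 0.870). Gli2 was 9.86-fold lower in KO- than in SmoM2-labelled libraries (log2 change -3.30, SE 0.37, edgeR adjusted p 0.000137) and 7.39-fold lower in Het- than in SmoM2-labelled libraries (log2 change -2.89, SE 0.34, edgeR adjusted p 0.000152).

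Foxd1, the defining transcription factor of kidney stroma, was named after its values were seen. It was at 12.8 and 3.70 CPM in the KO-labelled, 22.5 and 14.6 in the Het-labelled, 197 and 171 in the WT-labelled and 385 and 301 in the SmoM2-labelled libraries. Against the WT-labelled libraries Foxd1 changed by -4.48 in the KO-labelled (SE 0.36, edgeR adjusted p 4.90e-05) and by -3.30 in the Het-labelled ones (SE 0.31, edgeR adjusted p 0.000101). Its SmoM2- against WT-labelled change of 0.90 was not called (SE 0.27, edgeR adjusted p 0.322). Of the other stromal markers, Pdgfra and Pdgfrb had closer group means. From the KO to the SmoM2 label Pdgfra was at 9.36, 9.04, 11.5 and 9.44 CPM and Pdgfrb at 16.6, 19.7, 20.9 and 17.8 CPM. Lum and Dcn were highest under the SmoM2 label, at 0.99, 0.54, 0.91 and 4.06 CPM and at 4.87, 3.08, 3.94 and 6.83 CPM. Col1a1 and Col3a1 were highest under the KO label, at 206, 126, 113 and 143 CPM and at 87.8, 49.6, 71.7 and 78.2 CPM. The summed stromal list, which contains Foxd1, was at 625 and 88.2 CPM in the KO-labelled libraries, in replicate order. It was at 167 and 347 in the Het-labelled, 533 and 338 in the WT-labelled and 691 and 558 in the SmoM2-labelled ones. Gli1 was at 5.98 and 2.83, 2.67 and 4.42, 33.6 and 28.3, and 75.9 and 73.5 CPM in the same order. Within the KO-labelled pair Col1a1 ran from 151 to 1714 counts and Col3a1 from 81 to 713. The 7 collecting duct markers summed to between 1.70 and 3.76 CPM in the 4 KO- and Het-labelled libraries, between 10.1 and 13.0 in the WT-labelled and between 26.0 and 35.9 in the SmoM2-labelled ones. Most of that sum was Wnt11, with group means of 2.09, 0.94, 8.65 and 29.2 CPM. Of the other 6 markers, 5 had at most 3 counts in each SmoM2-labelled library, and Ret was at 1.40 CPM there and 1.63 in the WT-labelled libraries. The part of other cell types in the Smo, Gli1 and Gli2 values was not tested.

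The KO- against WT-labelled change of Gli1 was -3.44 without KO-labelled replicate 1 (edgeR adjusted p 0.00118) and -2.37 without replicate 2 (edgeR adjusted p 0.00214). That of Gli2 was -2.67 and -1.95 (edgeR adjusted p 0.0174 and 0.0247).

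Gli3 (chr13:15463235-15730026, plus strand), whose cut form is the main repressor of the pathway, was called in none of the 6 comparisons. Its counts were 234 and 376 in the KO-labelled, 686 and 542 in the Het-labelled, 971 and 899 in the WT-labelled and 682 and 866 in the SmoM2-labelled libraries. In CPM these are 51.8 and 81.9, 91.7 and 92.1, 90.5 and 97.9, and 69.7 and 100.1. The KO- and the SmoM2-labelled pairs were each wide, and the lower KO-labelled library, replicate 1, was the lowest of all 8.

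In KO- against WT-labelled libraries the Gli3 change was -0.49 (interval -0.95 to -0.04, edgeR adjusted p 0.109). It passed the threshold with no filter, with the replicate number as a block, with the dissociation genes as a term and without KO-labelled replicate 2 (adjusted p 0.00713, 0.0381, 0.0148 and 0.0247, range over alternatives 0.00713 to 0.770). Without KO-labelled replicate 1, the Gli3 change in this comparison was -0.20 (edgeR adjusted p 0.549). In Het- against WT-labelled libraries it was -0.04 (interval -0.48 to 0.41, edgeR adjusted p 0.916), and in SmoM2- against WT-labelled libraries -0.15 (interval -0.59 to 0.29, edgeR adjusted p 0.942). These intervals leave out changes of the size seen for Gli1 and Gli2 under the same contrasts. Over the 17 alternatives the Gli3 change lay between -1.05 and 0.16 in Het- and between -0.60 and 0.09 in SmoM2- against WT-labelled libraries. Gm6556, on the opposite strand, shares 188 exon bases with Gli3.

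Because Gli1 and Gli2 differed between groups more than Gli3 did, the make-up of the Gli transcripts differed from library to library. Levels between genes were compared per length, as RPKM, and each factor is given as its share of the summed RPKM of Gli1, Gli2 and Gli3, with no test. Gli3 made up 74.9% and 90.4% in the KO-labelled, 90.5% and 86.5% in the Het-labelled, 50.8% and 54.1% in the WT-labelled and 25.9% and 33.2% in the SmoM2-labelled libraries. Gli1 made up 19.9% and 7.19%, 6.07% and 9.54%, 43.4% and 36.0%, and 64.8% and 56.1% in the same order. Gli2 was between 2.42% and 10.7% of the sum in every library.

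Gli3 was thus the main Gli transcript in all 6 KO-, Het- and WT-labelled libraries, and Gli1 in both SmoM2-labelled ones. The ratio of Gli3 to Gli1 RPKM was 3.77 and 12.6 in the KO-labelled, 14.9 and 9.06 in the Het-labelled, 1.17 and 1.503 in the WT-labelled and 0.399 and 0.592 in the SmoM2-labelled libraries. The lower KO-labelled ratio belongs to replicate 1, which had the most Gli1 and the least Gli3 of the KO- and Het-labelled libraries. The summed Gli RPKM was 6.95 and 9.25, 9.79 and 10.2, 17.9 and 17.0, and 25.6 and 28.5. RNA levels do not show how much of the Gli3 or Gli2 protein was cut.

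**Figure D2:**
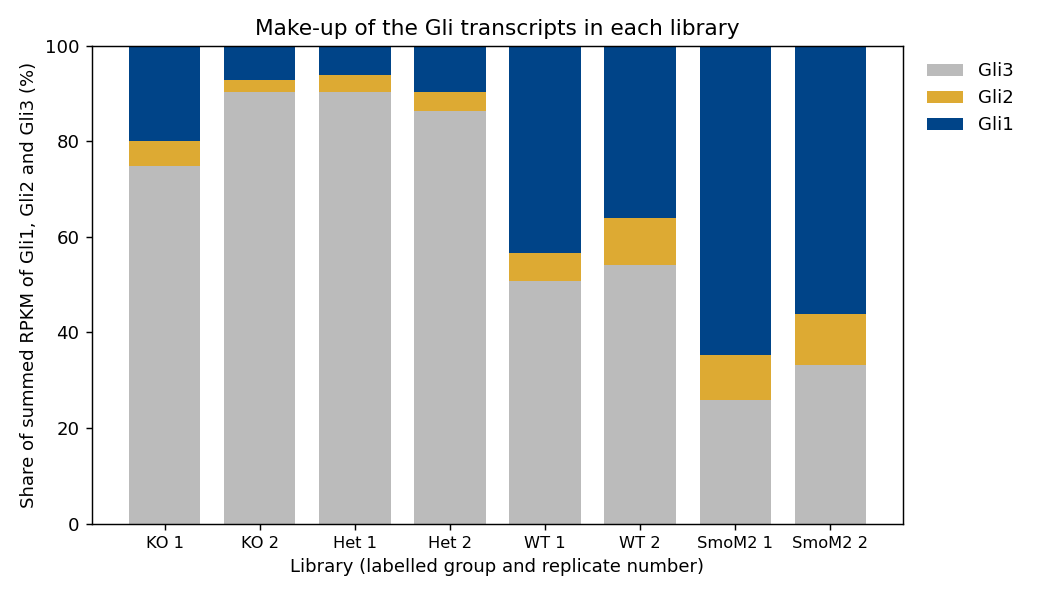
Share of Gli1, Gli2 and Gli3 in their summed RPKM (percent, stacked to 100) in each of the 8 libraries, named by labelled group and replicate number. The Gli3 share was 74.9% or more in all 4 libraries with a KO or Het label, 50.8% and 54.1% in the WT-labelled ones and at most 33.2% in the SmoM2-labelled ones.

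Among the regulators, Stk36 was higher in the Het-labelled libraries, Sufu and Kif7 were lower in KO- than in SmoM2-labelled libraries, and Spop was called in none of the 6 comparisons in the edgeR model over all libraries. Stk36 (chr1:74601445-74636894, plus strand), the kinase related to Fused, is known in mice for its need in motile cilia. Its CPM were 22.1 and 26.1 in the KO-labelled, 39.8 and 40.6 in the Het-labelled, 21.8 and 17.0 in the WT-labelled and 19.2 and 11.9 in the SmoM2-labelled libraries, from counts of 100 to 298. Both Het-labelled libraries lay above all 6 others, and the WT- and SmoM2-labelled libraries overlapped.

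Stk36 was 2.07-fold higher in Het- than in WT-labelled libraries (log2 change 1.05, SE 0.22, edgeR adjusted p 0.00712). It was 2.57-fold higher in Het- than in SmoM2-labelled libraries (log2 change 1.36, SE 0.23, edgeR adjusted p 0.00124). Stk36 and the summed dissociation genes were both highest in the Het-labelled libraries. KO-labelled replicate 2, next highest in these genes at 5938 CPM, had 26.1 CPM of Stk36. SmoM2-labelled replicate 2, at 4775 CPM, had 11.9 CPM of Stk36, the lowest of all libraries. The part of dissociation in the Stk36 level was not tested beyond a fit with the dissociation genes as a term. That term, their mean log2 CPM, was 7.61 and 7.77 in the Het-labelled and 6.49 and 6.69 in the WT-labelled libraries. Between these 2 groups the term thus followed the label, and the fit cannot settle its part. With the dissociation genes as a term the Het- against WT-labelled change was 1.95 (edgeR adjusted p 0.0598, range over alternatives 6.91e-06 to 0.0598). The call was thus lost while the change grew. The KO- against Het-labelled change of Stk36 was -0.74 (interval -1.24 to -0.23, edgeR adjusted p 0.0673), which 7 of 17 alternatives called, including DESeq2 and the fit with the sex of the embryos as a term. The KO- against SmoM2-labelled change was 0.63 (interval 0.11 to 1.15, edgeR adjusted p 0.0639), which 6 of 17 called.

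Sufu (chr19:46396896-46488804, plus strand), the inhibitor that holds Gli proteins, was at 75.9 and 80.1 CPM in the KO-labelled, 99.99 and 101.9 in the Het-labelled, 87.4 and 82.8 in the WT-labelled and 112 and 100.1 in the SmoM2-labelled libraries. The KO-labelled libraries were the lowest and the Het- and SmoM2-labelled ones overlapped. Sufu was 1.36-fold lower in KO- than in SmoM2-labelled libraries (log2 change -0.44, SE 0.12, edgeR adjusted p 0.0178). The call was lost without KO-labelled replicate 1 (adjusted p 0.0787), without SmoM2-labelled replicate 1 (0.114), with the RPKM-implied totals (0.0576) and with a gene length trend removed (0.0617), in a range of 0.0110 to 0.114. Against the WT-labelled libraries Sufu changed by -0.13 (interval -0.39 to 0.14) in the KO-labelled, 0.25 (-0.02 to 0.51) in the Het-labelled and 0.32 (0.06 to 0.58) in the SmoM2-labelled ones, none of them called (edgeR adjusted p 0.487, 0.154 and 0.506).

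Kif7 (chr7:79698098-79715720, minus strand), the kinesin of the cilium tip, was at 69.3 and 46.4 CPM in the KO-labelled, 75.7 and 74.6 in the Het-labelled, 76.8 and 76.2 in the WT-labelled and 89.6 and 80.2 in the SmoM2-labelled libraries. The KO-labelled pair was the lowest and the most spread. Kif7 was 1.47-fold lower in KO- than in SmoM2-labelled libraries (log2 change -0.55, SE 0.17, edgeR adjusted p 0.0271). The call was lost, and the change fell to -0.29, without KO-labelled replicate 2 (adjusted p 0.156). It was also lost without SmoM2-labelled replicate 1 (0.127), with the RPKM-implied totals (0.0533) and with the length trend removed (0.0905), in a range of 0.00156 to 0.156. Against the WT-labelled libraries the Kif7 changes were -0.40 (interval -0.77 to -0.04), -0.03 (-0.38 to 0.33) and 0.15 (-0.20 to 0.50) in the KO-, Het- and SmoM2-labelled ones (edgeR adjusted p 0.103, 0.921 and 0.926). The first of these was called without KO-labelled replicate 1 and with no filter (adjusted p 0.0190 and 0.0360, range 0.0190 to 0.509). Kif7 shares 51 exon bases with Ticrr and 877 with 9330171B17Rik, both on the opposite strand, and Ticrr was called in none of the 6 comparisons.

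Spop (chr11:95414080-95493406, plus strand), the adaptor that brings Gli proteins to Cul3, was at 100.7 and 110.6 CPM in the KO-labelled, 81.7 and 83.1 in the Het-labelled, 101.3 and 103.3 in the WT-labelled and 98.0 and 109.3 in the SmoM2-labelled libraries. The Het-labelled libraries were below all others and the other 3 groups overlapped. Its Het- against WT-labelled change was -0.31 (interval -0.58 to -0.05, edgeR adjusted p 0.0795) and its Het- against SmoM2-labelled change -0.33 (interval -0.60 to -0.07, edgeR adjusted p 0.0544). The latter was called in 5 of 17 alternatives (adjusted p 0.0381 to 0.209). The KO- against Het-labelled change of Spop was called with the RPKM-implied totals (adjusted p 0.0471, range over alternatives 0.0471 to 0.313). Against the WT-labelled libraries Spop changed by 0.05 (-0.22 to 0.31) in the KO-labelled and 0.02 (-0.24 to 0.28) in the SmoM2-labelled ones (edgeR adjusted p 0.807 and 0.990).

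The counts of genes called are read against the share of all 13459 tested genes called in the same comparison. In KO- against WT-labelled libraries 3 of the 8 genes were called, Smo, Gli1 and Gli2, all lower, against 23.0% of all genes. In Het- against WT-labelled libraries 4 of 8 were called, the same 3 lower and Stk36 higher, against 25.3%. In SmoM2- against WT-labelled libraries Gli1 was called, 1 of 8, against 0.223%, which is 30 genes. In KO- against SmoM2-labelled libraries 5 of 8 were called, Smo, Gli1, Gli2, Sufu and Kif7, all lower, against 32.5%. In Het- against SmoM2-labelled libraries 4 of 8 were called, Smo, Gli1 and Gli2 lower and Stk36 higher, against 33.7%.

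With only 8 genes, nothing particular to them is read from these counts. The sizes of the changes were spread widely. In KO- against WT-labelled libraries the absolute log2 change was larger than that of 99.8% of genes for Smo, 99.1% for Gli1 and 98.3% for Gli2, and of 18.8% for Sufu and 7.05% for Spop. In KO- against Het-labelled libraries edgeR called 0 of 8, against 9.43% of all genes, and DESeq2 called 2, Smo and Stk36. At an unadjusted p under 0.05 edgeR gave 5 of 8, Smo, Sufu, Kif7 and Stk36 lower and Spop higher, against 27.4% of all genes. Comparisons that share a group share its libraries, so these calls are not independent of each other.

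**Figure D3:**
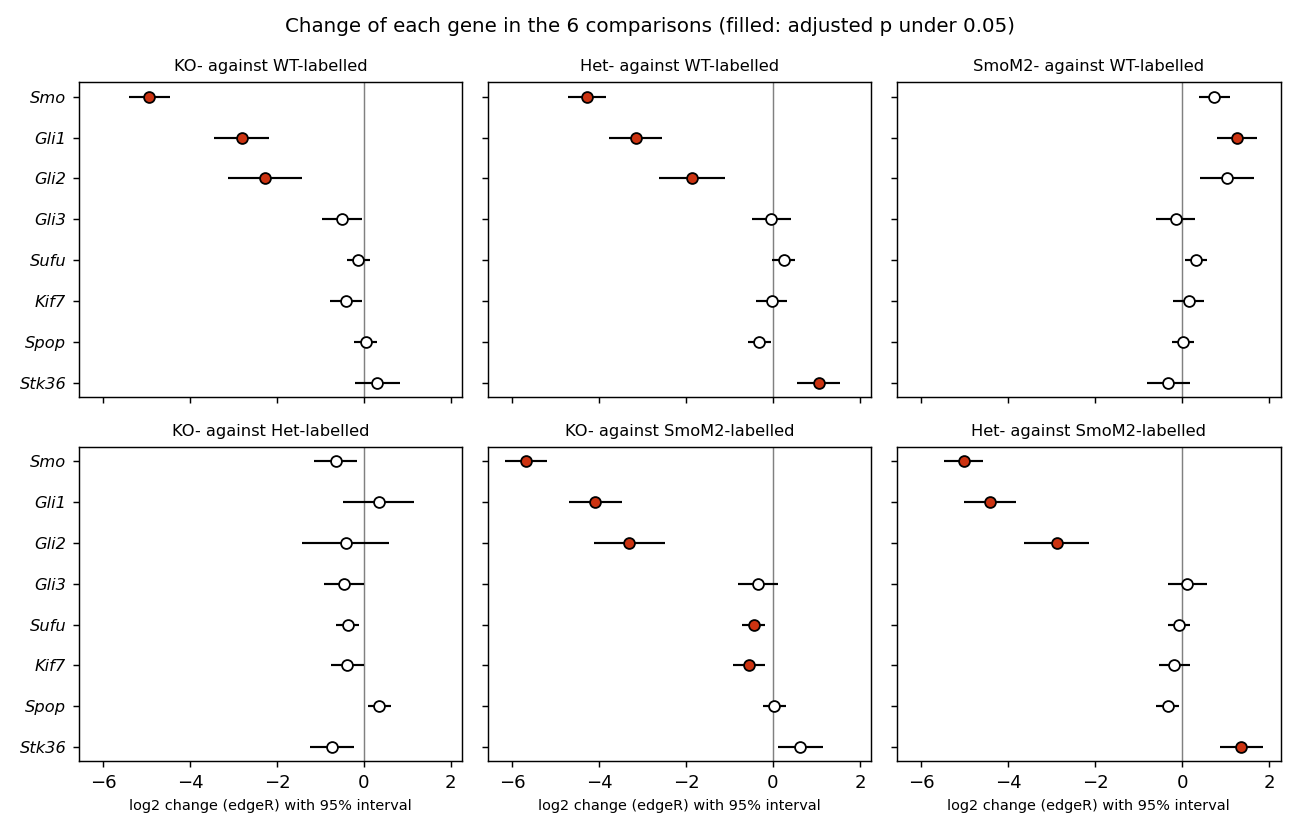
The log2 change of each gene (edgeR, x axis) with its 95% interval in each of the 6 comparisons; filled points had an adjusted p under 0.05 over all tested genes. Smo, Gli1 and Gli2 lay between -1.85 and -5.67 in the 4 comparisons of KO- or Het-labelled with WT- or SmoM2-labelled libraries, and in these 4 the other 5 genes lay between -0.55 and 1.36.

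In a test over all 4 groups, 5 of 8 genes were called, against 41.0% of all genes. These were Smo (edgeR adjusted p 9.89e-08), Gli1 (3.84e-06), Gli2 (0.000127), Stk36 (0.00321) and Sufu (0.0339). Gli3, Kif7 and Spop were not called (edgeR adjusted p 0.218, 0.0868 and 0.0911). The call of Sufu was lost with the RPKM-implied totals, with the length trend removed, without either KO-labelled library, without either Het-labelled library and without SmoM2-labelled replicate 1.

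Genes were also ranked by how closely their log2 CPM, centred on their own mean, followed a gene over the 8 libraries, as the root mean square difference in log2 units. Among the genes that followed Smo most closely were Pltp (0.40), Sfmbt2 (0.58) and Foxd1 (0.64). Pltp, a phospholipid transfer protein, had group means of 4.52, 5.33, 82.1 and 196 CPM from KO to SmoM2. Gli1 was followed most closely by Inpp4b (0.42), Wnt11 (0.47), AW551984 (0.47) and Plaur (0.56), and Gli2 by Plaur (0.21), Creb5 (0.27), Dusp10 (0.28) and Eps8 (0.31). For Gli3, which varied over 0.95 log2 units in all, the closest were Gm7694 (0.12), Pcdhb15 (0.12), Rybp (0.13) and Znrf3 (0.13). Among the 8 genes, Gli1 lay 0.81 from Smo and 0.68 from Gli2, and Sufu lay 0.20 from Kif7. A small difference is easier to reach for genes that vary little, and all these values share the same 8 libraries.

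Other genes of the pathway were taken from lists and are given for the 3 comparisons with the WT-labelled libraries, in the order KO, Het and SmoM2, in which 23.0%, 25.3% and 0.223% of all genes were called. Of the 6 listed receptors and co-receptors, all tested, 2 fell in the KO-labelled libraries, 2 in the Het-labelled and 0 in the SmoM2-labelled ones, while 2, 4 and 2 rose. The genes that fell were Ptch1 and Hhip, which bind the ligand and restrain the pathway and are targets of it. Ptch1 was at 53.0 ± 2.32, 76.2 ± 1.00, 161 ± 8.92 and 366 ± 16.0 CPM (SD, n = 2) from the KO to the SmoM2 label, and its log2 changes against WT were -1.61, -1.08 and 1.18 (edgeR adjusted p 3.67e-05, 0.000172 and 0.00219). Hhip had 5 and 10 counts at the extremes of the KO-labelled, 2 and 3 in the Het-labelled, 34 and 50 in the WT-labelled and 610 and 673 in the SmoM2-labelled libraries.

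The co-receptors Cdon and Gas1, which help ligand bind, went the other way. Cdon changed by 0.88 and 1.21 in KO- and Het-labelled libraries (edgeR adjusted p 0.00645 and 0.00108), and Gas1 by 0.68 and 1.14 (edgeR adjusted p 0.00401 and 0.000228). Boc and Lrp2 rose in the Het-labelled libraries, by 0.59 and 1.38 (edgeR adjusted p 0.0174 and 0.000996). In SmoM2-labelled libraries Cdon and Gas1 had changes of -0.20 and -0.12, not called. The median change of the list was -0.0077, 0.86 and -0.05, beside 0.03, -0.02 and 0.00 over all genes.

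The 6 listed direct Gli targets, among them Gli1, Ptch1 and Hhip, fell in 4, 3 and 0 cases and rose in 0, 0 and 4. Their median fitted changes were -2.21, -2.57 and 2.56. With genes of at most 3 counts in only 1 of the groups set to the bound that 3 counts allow, the medians were -1.36, -1.08 and 1.86. A gene at or below 3 counts in both groups was left out of these bounded medians. This took out 1 gene in the KO and 1 in the Het comparison. Foxf1, a factor of Hedgehog-responding mesenchyme, had 0 counts in the KO-labelled libraries, at most 2 in a Het-labelled library, 8 in each WT-labelled library and 96 and 142 at the extremes of the SmoM2-labelled ones. It rose in SmoM2-labelled libraries (log2 change 3.97, SE 0.44, edgeR adjusted p 0.00784). Foxl1 was called in none of these 3 comparisons. Foxf1 is also among the 6 markers of ureteral mesenchyme. In replicate order, these totalled 55.4 and 31.6 CPM under the KO label and 12.2 and 22.9 under the Het label. The totals were 32.0 and 19.0 under the WT label and 30.8 and 27.9 under the SmoM2 label. From the WT to the SmoM2 label, mean Tshz3 also rose (0.74 to 5.43 CPM). Mean Acta2 (8.73 to 4.37), Tagln (13.2 to 5.91), Myh11 (1.63 to 0.75) and Tbx18 (0.36 to 0.05) fell.

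Of 15 kinase genes 2 rose and 2 fell in the KO-labelled libraries (all genes 23.0%), 3 rose in the Het-labelled ones (25.3%) and 0 were called in the SmoM2-labelled ones (0.223%). Gsk3b, a kinase that acts on Gli proteins, fell by 0.83 on the log2 scale under the KO label (edgeR adjusted p 0.00518), while its relative Gsk3a rose by 0.39 (edgeR adjusted p 0.0313). In the Het-labelled libraries Gsk3a rose by 0.51 (edgeR adjusted p 0.00828) and the Gsk3b change of -0.21 was not called (edgeR adjusted p 0.348). The median change of the kinases was -0.13, 0.03 and 0.07.

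Of 9 ubiquitin ligase genes 1 fell in the KO-labelled libraries (all genes 23.0%), 4 fell and 1 rose in the Het-labelled ones (25.3%), and 0 were called in the SmoM2-labelled ones (0.223%). Cul1, the scaffold of the ligase that starts Gli cutting, fell by 0.42 and 0.62 in KO- and Het-labelled libraries (edgeR adjusted p 0.0292 and 0.00464). Cul3, the scaffold that works with Spop, had changes of -0.45 and -0.48 (edgeR adjusted p 0.0576 and 0.0414), and Spopl, the relative of Spop, had changes of -0.55 and -0.73 (edgeR adjusted p 0.100 and 0.0327). The median change of the ligases was -0.19, -0.41 and 0.06.

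Of 12 tested regulators of Smo, 1 rose and 1 fell in the KO-labelled libraries (all genes 23.0%), 3 rose and 1 fell in the Het-labelled ones (25.3%) and 0 were called in the SmoM2-labelled ones (0.223%). The beta-arrestin genes went opposite ways: Arrb1 had log2 changes of -0.63 and -0.79 (edgeR adjusted p 0.0108 and 0.00306) and Arrb2 of 0.52 and 0.76 (edgeR adjusted p 0.0302 and 0.00423). Of 10 tested nuclear partners of Gli proteins 2 rose and 2 fell, 2 rose and 1 fell, and 0 were called, beside the same shares of all genes. With so few genes a list, nothing is read from these counts. Ski, a co-repressor that binds Gli3, fell by 0.57 and 0.35 (edgeR adjusted p 0.00463 and 0.0389). Of 9 genes for ligands and their release 4 passed the filter, and Shh had at most 2 counts in any library. Scube1, whose protein helps release ligand, fell by 2.58 and 1.41 (edgeR adjusted p 0.000613 and 0.00654).

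**Figure D4:**
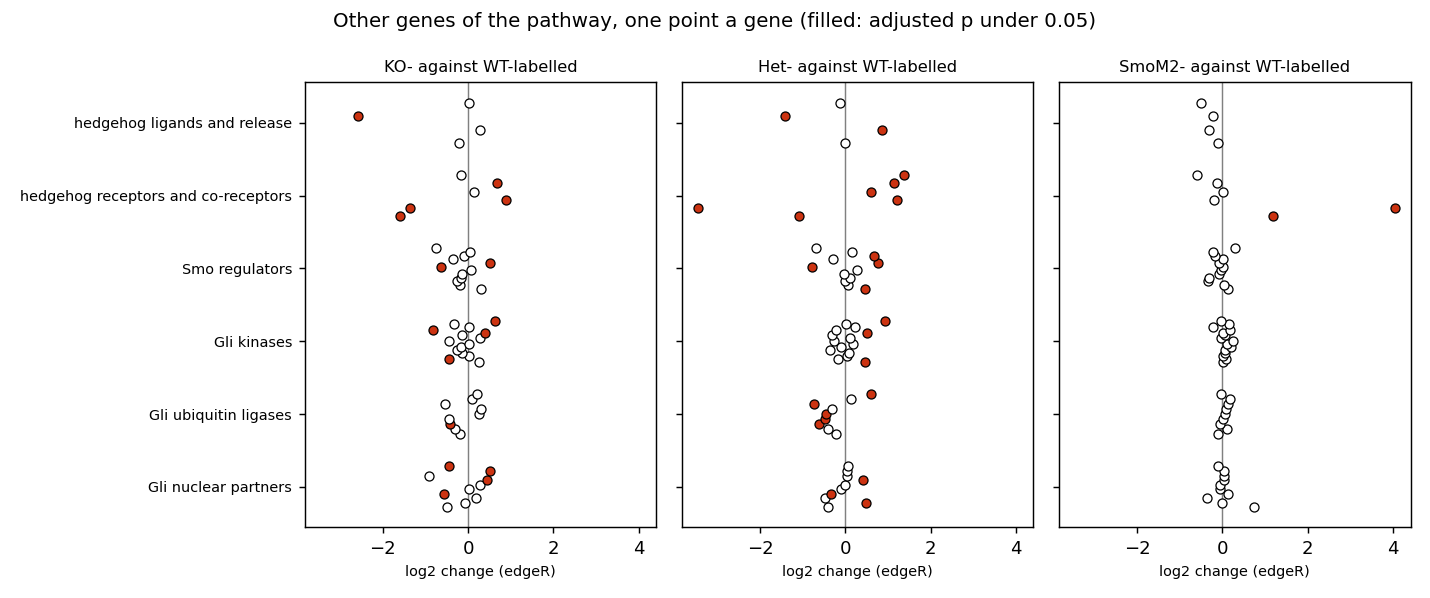
The log2 change (edgeR) of each tested gene of 6 pathway lists in KO-, Het- and SmoM2- against WT-labelled libraries; each point is a gene and filled points had an adjusted p under 0.05. The points farthest from 0 are Scube1 at -2.58 in the KO-labelled panel and Hhip in the others (4.03 in the SmoM2-labelled one, and in the Het-labelled one a fitted value that rests on 2 and 3 counts), and no kinase, ligase, Smo regulator or nuclear partner was called in the SmoM2-labelled panel, where 0.223% of all genes were.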

How the data were processed

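RNA of the sorted cells in 8 libraries was purified with a single-cell kit, poly(A)-selected and made into libraries, per the labels' protocols. The authors' deposited table gives raw counts per gene, RPKM and a gene length, per the file headers. STAR, Subread and featureCounts are named with the build mm10 in the submitters' processing notes; the annotation and strand setting are not given in the sources used here. Replicate pairs differed beyond sampling noise.

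The tests used edgeR 4.0.16, run in R 4.3.3, on the counts (filterByExpr, TMM scaling, a single quasi-likelihood model over all 8 libraries, biological coefficient of variation 13.5%, 4 residual degrees of freedom before moderation, two-sided, Benjamini-Hochberg over 13459 genes, threshold 0.05). Standard errors and 95% intervals are those the test statistic implies. CPM use the scaled library sizes, and log2 CPM a prior count of 2. A group was at the floor for a gene where neither library had more than 3 counts. The authors' RPKM entered comparisons between genes. The code was tested on simulated data. All 8 genes and list members could be named, and for Smo and each Gli factor the 4 genes with the smallest root mean square difference among genes with an average log2 CPM of at least 1. Some genes of the lists are not reported here. Genes and lists were chosen with earlier results of these data known. Foxd1, Arhgap9 and Ticrr were named after their values were seen. Gene positions are from GENCODE M21. DESeq2 1.42.0 was an alternative. Other alternatives were RLE scaling, RPKM-implied totals, no filter, only the groups compared, terms for replicate number, sex and dissociation genes, a length trend, and leaving out each library.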

Additional observations from a re-analysis of the deposited data

How the results depend on the processing

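Each of the 48 gene changes (8 genes in 6 comparisons) was recomputed under 17 alternatives, giving 816 values. Of these, 734 kept their direction and their side of the threshold, 16 lost a call, 33 gained one and 33 changed sign. In the comparisons of KO- and Het-labelled with WT- and SmoM2-labelled libraries, Smo and Gli1 were called under all 17, as was Gli2 except in Het against WT with the dissociation genes as a term. The cause of the changes below was not tested.

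The number of the 8 genes called in KO against WT was 5 with no filter. In Het against WT it was 2 with the dissociation term. In SmoM2 against WT it was 0 with the RPKM-implied totals and with the dissociation term, 3 with no filter, 2 with DESeq2, and 0 to 1 when a library was left out. In KO against Het it was 1 with the RPKM-implied totals, with only the 2 groups and with the sex term, 3 with no filter, 2 with DESeq2, and 0 to 1 when a library was left out.

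Sign changes concerned changes that were not called. Spop in KO against SmoM2 was -0.00164 with RLE scaling, -0.000623 with no filter, -0.00346 with DESeq2, -0.0384 with the length trend removed and -0.0490 to 0.0940 when a library was left out. Spop in KO against WT was -0.0742 with the dissociation term, -0.00238 with the length trend removed and -0.0219 to 0.11 with a library left out. Spop in SmoM2 against WT was -0.0196 with the RPKM-implied totals, -0.10 with the dissociation term and -0.0534 to 0.10 with a library left out. Kif7 in Het against WT was 0.0159 with the sex term, 0.44 with the dissociation term and 0.0308 with the length trend removed, and in Het against SmoM2 it was 0.10 with the dissociation term. Gli2 in KO against Het was 0.15 with the sex term and 0.0240 with the dissociation term. Gli1 in KO against Het ranged from -0.29 to 0.78 with a library left out. Gli3 was 0.11 in KO against Het and -0.45 in Het against SmoM2 with the dissociation term, -0.0246 in Het against SmoM2 with the sex term, 0.16 in Het against WT and 0.0943 in KO against SmoM2 with the length trend removed. With a library left out Gli3 ranged from -0.42 to 0.0875 in SmoM2 against WT and from -0.12 to 0.36 in Het against SmoM2. Sufu in Het against SmoM2 was 0.0457 with the dissociation term and -0.19 to 0.0122 with a library left out. Stk36 in SmoM2 against WT was 0.0257 with the dissociation term.

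The deviations of same-numbered libraries had r from -0.06 to 0.0997 in 5 comparisons and 0.39 in SmoM2 against WT, where same-numbered libraries also shared sex. Since not every pair exceeded 0.1, the numbers were not taken as pairs. With the replicate number as a block, 4 genes were called in KO against WT, with Gli3 added, and 6 in KO against SmoM2, with Stk36 added. The block kept 4, 1, 0 and 4 calls in Het against WT, SmoM2 against WT, KO against Het and Het against SmoM2, and 5 over all groups.

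Counts over all genes moved further. SmoM2 against WT went from 30 to 356 with no filter, 76 with DESeq2, 54 with the block or the sex term, 10 with only the 2 groups, 11 with the dissociation term, and 5 to 65 with a library left out. KO against Het went from 1269 to 2217 with no filter, 446 with the dissociation term, 622 with the length trend removed, and as low as 4 without Het-labelled replicate 1. The dissociation term took Het against WT from 3403 to 174, KO against WT from 3100 to 1511 and Het against SmoM2 from 4529 to 2416. Leaving out a library took these as low as 1407, 1330 and 2425, KO against SmoM2 from 4372 to 2452, and the test over all groups from 5515 to 3643. With the RPKM-implied totals the share of calls that were higher went from 45.9% to 64.7% in KO against Het and from 50.7% to 62.8% in KO against SmoM2. In KO against Het it was 32.8% with the length trend removed and 34.8% with DESeq2. In SmoM2 against WT, with few genes called, it went from 70% to 59.3% with these totals, 57.6% with no filter and 90.9% with the dissociation term. Depth limits Gli2 most, with 8 to 21 counts in the KO- and Het-labelled libraries.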
